A study of Mus musculus with 9 samples.

Results

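The genes described here are 10 members of the canonical Wnt pathway. They include the Lrp genes Lrp4, Lrp5 and Lrp6 and the Frizzled receptors Fzd1 and Fzd2. The others are the transcription factors Lef1 and Tcf7, and the feedback inhibitors Axin2, Nkd1 and Nkd2. All 10 were chosen by name and were found among the 40526 genes that the deposited tables share. RNA-seq was performed on calvarial osteoblasts of C57BL/6 mice, cells digested from the skull bones of newborn pups at postnatal day 2 to 3. Cells grown to confluency and not differentiated formed day 0, and cells kept for a further 4 or 7 days in mineralization medium, which contained ascorbic acid and β-glycerol phosphate, formed day 4 and day 7. Each stage had 3 libraries of RNA depleted of ribosomal RNA, and the pups were of both sexes. No transgene or other genotype is labelled, and the cells are a primary population that can hold more than the osteoblast lineage. Mineralized cells were released with collagenase I before trypsin and non-mineralized cells with trypsin alone, so the way of release and the stage cannot be told apart.

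Wnt ligands bind a Frizzled receptor together with the co-receptor Lrp5 or Lrp6, and this stops the destruction complex from degrading β-catenin. Stabilized β-catenin then enters the nucleus and activates target genes through transcription factors of the TCF/LEF family. Some targets feed back on the pathway: Axin2 is a scaffold of the destruction complex, and Nkd1 and Nkd2 bind Dishevelled, the protein that relays the signal from the receptor. In bone the pathway promotes osteoblast formation, and loss of Lrp5 lowers bone mass. Lrp4 binds sclerostin, the Wnt inhibitor made by osteocytes.

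Levels are given in RPKM, reads scaled to gene length and library size, which allows genes to be compared with each other. The libraries held 7741204 to 14013219 reads on genes at day 0, 32820610 to 37306090 at day 4 and 10675858 to 15622755 at day 7. Day 7 was tested against day 0 with limma on log2(CPM + 0.5), where CPM is reads scaled to library size alone, over the 12712 genes whose CPM averaged 1 or more, and a gene was called at an adjusted p under 0.05. Day 4 was deposited in tables of its own and sequenced more deeply, so its levels are compared by direction and by ratios of means, with no test. The labels do not say whether the libraries of a stage came from separate isolations, and the study calls them biological replicates. The p-values rest on the spread between these libraries, shrunk strongly towards a trend over all genes, and do not speak for other isolations. The labelled cell type was checked against its markers. Of these, 11 of 12 osteoblast markers were called higher at day 7 and none lower, against 12.6% and 18.6% of all genes tested. Bglap, which encodes osteocalcin, was at 0.346, 0.676 and 0.627 RPKM at day 0. It was at 29.0, 32.2 and 38.1 at day 4 and at 126, 163 and 156 at day 7. Runx2, the master regulator of the lineage, was not called, with a log2 change of 0.23 (adjusted p = 0.268). Its day 4 and day 7 libraries nevertheless all lay above those of day 0. Its means were 8.06, 9.12 and 9.47 RPKM at day 0, day 4 and day 7. Of the libraries left out in turn, replicate 3 of day 0 changed the calls most. Without it 6330 genes were called, 1631 higher and 4699 lower, against 3971 with all libraries, 1602 higher and 2369 lower. The median log2 change of all genes was then -0.225, against -0.112 with all libraries.

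Of the 10 genes, Tcf7 and Nkd2 were called higher at day 7 and Lrp6, Fzd2 and Nkd1 lower, while Lrp4, Lrp5, Fzd1, Lef1 and Axin2 were not called. Over all genes tested, 31.2% were called, 12.6% as higher and 18.6% as lower. The same 5 genes were called, in the same direction, in all 17 alternative settings tried. The median log2 change was 0.24 over the 10 genes, -0.27 over the 55 other Wnt pathway genes tested and -0.11 over all genes. Median-of-ratios scaling moved that last median to -0.01, and with it the calls from 1602 higher and 2369 lower to 2843 higher and 2612 lower. With this scaling Lrp4, Lrp5, Fzd1 and Axin2 also passed as higher. So they did with the count models edgeR and DESeq2 and with voomWithQualityWeights, which all rescale the libraries. The study itself used voomWithQualityWeights on rescaled libraries. The calls for these 4 genes therefore depended on the scaling, whereas the calls for Tcf7, Nkd2, Lrp6, Fzd2 and Nkd1 did not.

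**Figure D1:**
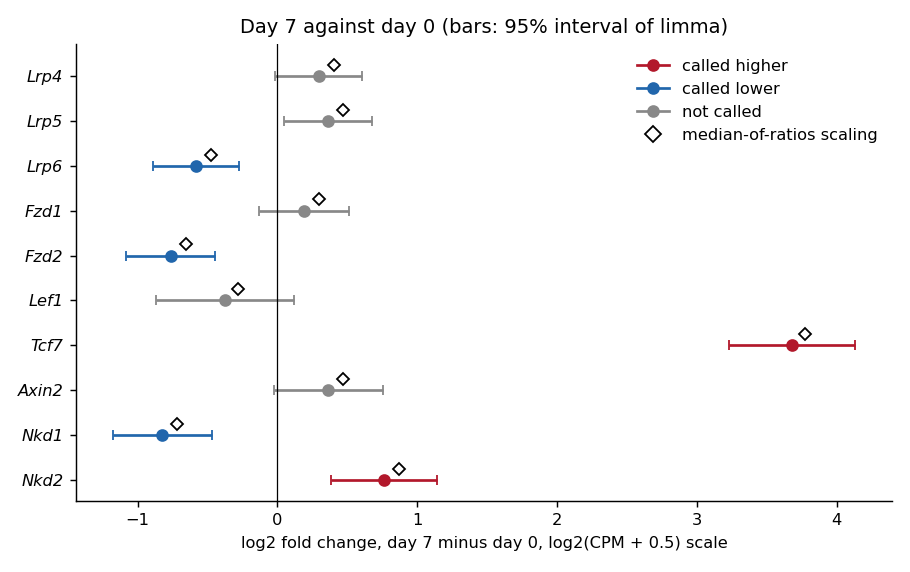
Log2 change of each gene from day 0 to day 7 (horizontal axis, log2(CPM + 0.5) scale; circles with 95% intervals from limma; n = 3 libraries a stage) and the change with median-of-ratios scaling (diamonds). Tcf7 lies at 3.68, far to the right of the other 9 genes, and the intervals of Lrp4, Fzd1, Lef1 and Axin2 include 0.

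The promoters of Axin2, Lef1 and Nkd2 are shown as examples of pathway targets whose day 4 libraries all lay above their day 0 libraries and whose RefSeq window lies outside the annotated gene. Each is the 250 bases before the outermost RefSeq start on GRCm38.p6, written 5′ to 3′ on the strand of the gene, with the core of the TCF/LEF motif, CTTTG, in capitals. The Axin2 window is chr11:108920099-108920348 on the plus strand, that of Lef1 is chr3:131110047-131110296 on the plus strand and that of Nkd2 is chr13:73847632-73847881 on the minus strand.
Axin2: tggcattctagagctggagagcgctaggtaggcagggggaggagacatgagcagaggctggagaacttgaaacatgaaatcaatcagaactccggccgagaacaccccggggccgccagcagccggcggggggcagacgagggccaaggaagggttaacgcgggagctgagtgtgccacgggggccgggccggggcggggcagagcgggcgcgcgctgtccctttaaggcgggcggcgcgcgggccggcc
Lef1: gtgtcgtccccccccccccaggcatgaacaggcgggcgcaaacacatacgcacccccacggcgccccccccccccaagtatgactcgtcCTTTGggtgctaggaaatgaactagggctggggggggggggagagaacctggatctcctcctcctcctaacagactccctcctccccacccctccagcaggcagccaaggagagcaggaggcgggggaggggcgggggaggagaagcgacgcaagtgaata
Nkd2: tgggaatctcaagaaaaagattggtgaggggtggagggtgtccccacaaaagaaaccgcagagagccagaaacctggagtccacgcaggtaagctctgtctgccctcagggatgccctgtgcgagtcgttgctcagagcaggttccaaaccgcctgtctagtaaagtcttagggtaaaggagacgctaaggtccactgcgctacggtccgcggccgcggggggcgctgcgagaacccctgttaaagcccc
The full motif, CTTTGAT or CTTTGAA on either strand, was absent from these letters. It was in 0 of the 10 windows that RefSeq gives for 6 of the genes, against 7.48% of all 32817 windows of the same length. The shorter core CTTTG, which the full motif contains, was in 5 of the 10 windows against 48.6% of all. In the Lef1 window it occurs once, 161 bases before the start. The window of Tcf7 also lies outside the annotated gene, holds no core and has a GC content of 76%. From an ATG to its last base, its letters form a reading frame without a stop codon. It may therefore be coding sequence and is not described as a promoter, although it is counted among the 10 windows. The windows of Axin2 and Lef1 have a GC content of 69.2% and 66.4%, that of Nkd2 58.4%, and the median window 52.4%. A match is a description of the letters and not a binding site.

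The Lrp genes differed in direction (plot of RPKM by library). Lrp6 (ENSMUSG00000030201; chr6:134446476-134566965 on GRCm38, minus strand), the main signalling co-receptor beside Lrp5, was at 27.5, 29.8 and 24.3 RPKM at day 0, at 18.1, 17.5 and 16.5 at day 4 and at 19.5, 17.6 and 17.2 at day 7. All libraries of the later stages lay below those of day 0, and the later stages overlapped with each other. The level fell from day 0 to day 7 by 0.58 on the log2 scale (SE 0.15, adjusted p = 0.00233). Lrp5 (ENSMUSG00000024913; chr19:3584828-3686564, minus strand) was at 9.51, 11.1 and 11.1 RPKM at day 0, at 10.8, 13.7 and 12.7 at day 4 and at 15.5, 13.9 and 11.5 at day 7. All day 7 libraries lay above all day 0 libraries, and day 4 overlapped with both. The log2 change of 0.36 (SE 0.16, 95% interval 0.05 to 0.67) missed the threshold after adjustment (adjusted p = 0.0721), and it passed without replicate 3 of day 0 (adjusted p = 0.0200). Lrp4 (ENSMUSG00000027253; chr2:91457511-91513779, plus strand) was at 9.97, 12.5 and 10.3 RPKM at day 0, at 7.33, 7.56 and 7.51 at day 4 and at 15.1, 12.8 and 12.3 at day 7. It was the single gene of the 10 with every day 4 library below every library of both other stages, a pattern shown by 3.76% of the 12782 genes whose CPM averaged 1 or more over all 9 libraries. Its mean was 1.80 times higher at day 7 than at day 4, whereas day 7 and day 0 overlapped and the log2 change of 0.29 was not called (95% interval -0.02 to 0.61, adjusted p = 0.149).

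The makeup of the summed Lrp level, which counts Lrp4 beside the co-receptors Lrp5 and Lrp6, differed between the stages. The summed RPKM of Lrp4, Lrp5 and Lrp6 was 48.7 ± 4.09 before differentiation, 37.2 ± 1.35 after 4 days and 45.1 ± 4.58 after 7 days (SD, n = 3; exact permutation test, two-sided, p = 0.4 for day 7 against day 0). Every day 4 sum, at 36.3 to 38.8 RPKM, lay below those of both other stages. Lrp6 made up 53.2% to 58.6% of this sum at day 0, a mean of 46.6% at day 4 and 38.9% to 42.0% at day 7. The ranges of day 0 and day 7 did not overlap (exact two-sided p = 0.1, the smallest that 3 against 3 libraries can give). The share of Lrp4 was 22.4% ± 1.12 at day 0 and 29.7% ± 0.718 at day 7, and its libraries did not overlap between these stages (exact two-sided p = 0.1). Lrp6 nevertheless kept the highest level of the 3 Lrp genes at each stage, with no overlap with the next one.

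**Figure D2:**
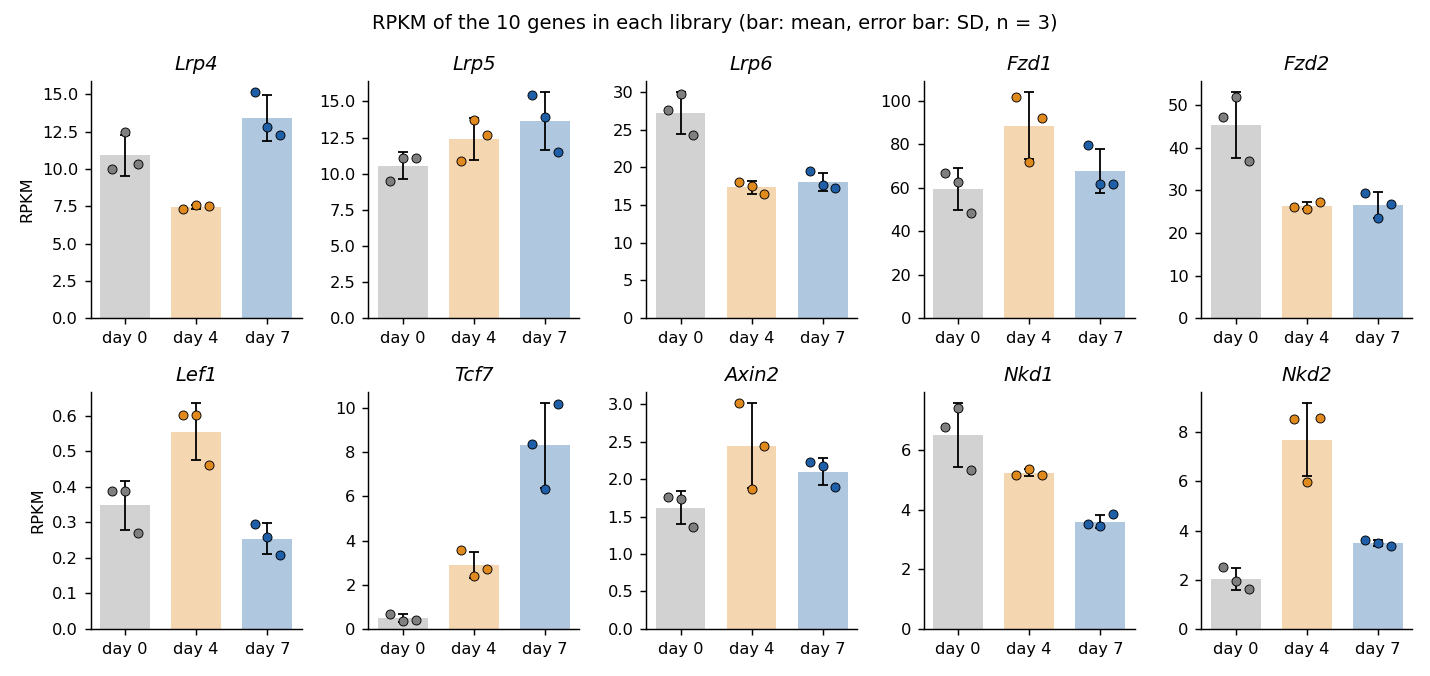
RPKM of the 10 genes in each library (points), with the mean (bar) and SD (error bar) of 3 libraries at day 0, day 4 and day 7; each panel has its own scale from 0. Tcf7 is higher at each step and reaches between 6.35 and 10.2 RPKM at day 7, Nkd2 stands highest at day 4, and Lrp6 and Fzd2 are highest at day 0.

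The Frizzled receptors Fzd1 and Fzd2, both encoded by a single exon, were the most abundant genes of the group at day 4 and day 7, and at day 0 they stood above all others as well. Fzd2 (ENSMUSG00000050288; chr11:102604396-102608058, plus strand) was at 47.3, 51.9 and 36.9 RPKM at day 0, at 26.2, 25.7 and 27.3 at day 4 and at 29.5, 23.5 and 26.8 at day 7. As with Lrp6, the later libraries all lay below those of day 0 and day 4 and day 7 overlapped. The level fell from day 0 to day 7 by 0.76 on the log2 scale (SE 0.16, adjusted p = 1.49e-04). Fzd1 (ENSMUSG00000044674; chr5:4753839-4758035, minus strand) was at 67.0, 62.9 and 48.6 RPKM at day 0, at 102, 71.7 and 92.0 at day 4 and at 79.6, 61.8 and 61.8 at day 7. Its day 4 libraries were all above those of day 0, but day 7 overlapped with both stages and the log2 change of 0.19 was not called (95% interval -0.13 to 0.51, adjusted p = 0.398).

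Fzd1 and Fzd2 overlapped at day 0 and separated thereafter. Of the RPKM of this pair, Fzd1 held 56.8% ± 1.89 before differentiation, 76.8% ± 3.01 after 4 days and 71.7% ± 1.72 after 7 days, and day 0 and day 7 did not overlap (exact two-sided p = 0.1). Over all 10 Frizzled genes, the summed level was 172.9 RPKM before differentiation and 176.5 and 172.5 RPKM after 4 and 7 days, while the share of Fzd2 went from 26.2% to 15.0% and 15.4%. Fzd5 was the single Frizzled called higher, from 20.3 ± 1.37 RPKM at day 0 to 30.9 ± 4.62 at day 7 (log2 change 0.60, adjusted p = 0.00214). This call was lost without replicate 1 of day 7. Fzd7 and Fzd8, not called in the main fit, were each called higher in 4 of 17 settings.

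Tcf7 (ENSMUSG00000000782; chr11:52252371-52283014, minus strand), a TCF/LEF factor that is itself a Wnt target, had the largest change of the 10 genes. It was at 0.679, 0.350 and 0.393 RPKM at day 0, at 3.57, 2.42 and 2.71 at day 4 and at 8.39, 6.35 and 10.2 at day 7. The stages did not overlap, and the mean at day 4 was 6.12 times that of day 0 and the mean at day 7 was 2.86 times that of day 4. The day 0 levels rest on 25, 11 and 8 reads, against 301, 178 and 418 at day 7, so the denominator of the ratios is imprecise. The log2 change from day 0 to day 7 was 3.68 (SE 0.22, adjusted p = 5.79e-19), and Tcf7 was among the 73 genes, 0.574% of those tested, whose change was at least this large in size. The estimate moved between 3.17 and 4.43 over the settings. Lef1 (ENSMUSG00000027985; chr3:131110471-131224356, plus strand), the other classical effector of the family, was at 0.387, 0.386 and 0.269 RPKM at day 0, at 0.602, 0.601 and 0.461 at day 4 and at 0.296, 0.260 and 0.207 at day 7. Every day 4 library exceeded every library of the other stages, and the log2 change from day 0 to day 7 was -0.37 with an interval across 0 (95% interval -0.86 to 0.12, adjusted p = 0.260). These levels rest on 18 to 47 reads a library at day 0 and 24 to 35 at day 7. Its level is also uncertain because the antisense gene Gm43352 covers 13.7% of its exonic bases, and the strand setting of the counting is not given in the sources used here.

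The TCF/LEF family thus had a different leading member at each end of the culture. Tcf7l1, known mainly as a repressor, held 51.5% ± 6.73 of the summed RPKM of Tcf7, Lef1, Tcf7l1 and Tcf7l2 at day 0, and Tcf7 held 12.8% ± 5.71. At day 4 Tcf7 held 55.8% ± 3.98 and at day 7 79.0% ± 3.79, when Tcf7l1 was at 8.71% ± 0.813. The share of Tcf7 was at most 19.3% in the day 0 libraries and at least 75.3% in those of day 7 (exact two-sided p = 0.1). The summed level of the family was 3.78 ± 0.236 RPKM before differentiation, and 5.17 ± 0.716 and 10.5 ± 1.94 RPKM after 4 and 7 days. Tcf7l1 fell by 1.01 on the log2 scale from day 0 to day 7 (adjusted p = 2.14e-04), and Tcf7l2 was at 1.01 and 0.996 RPKM at these stages (log2 change 0.01, adjusted p = 0.982). Lef1 held 9.25% of the sum at day 0 and 2.51% at day 7.

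**Figure D3:**
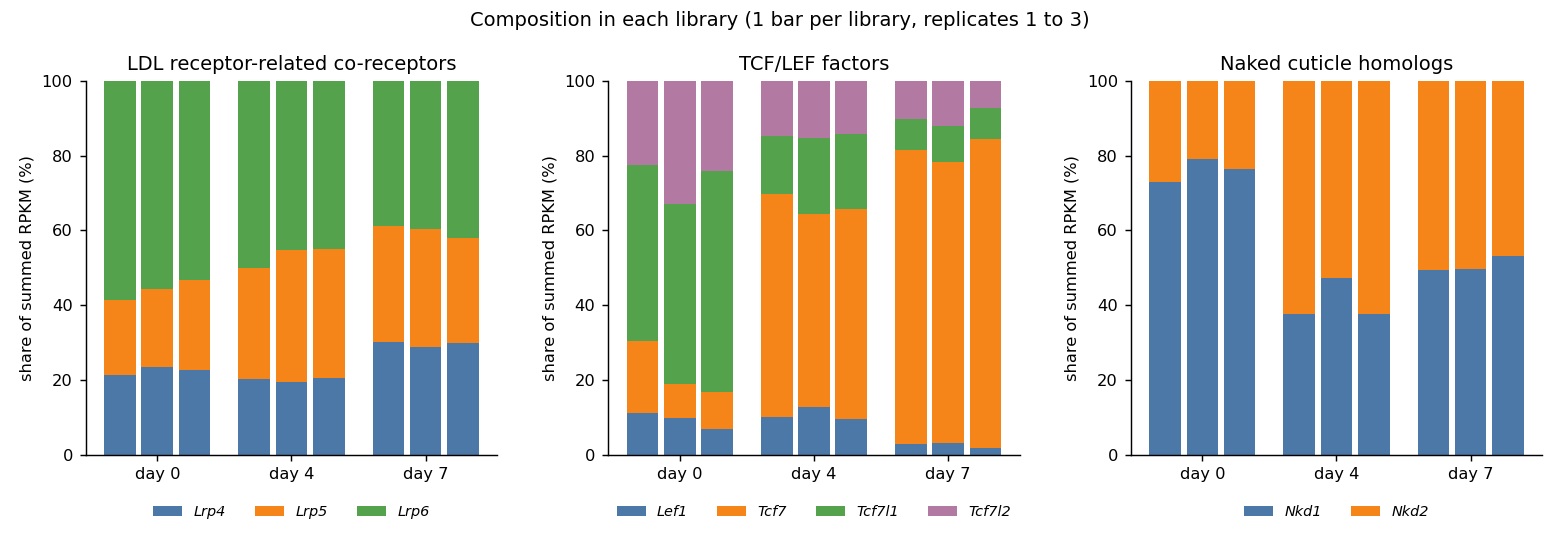
Share of each gene (vertical axis, percent of summed RPKM) in the Lrp genes Lrp4, Lrp5 and Lrp6, in the TCF/LEF factors and in Nkd1 and Nkd2, with 1 bar per library at day 0, day 4 and day 7. Lrp6 shrinks from a mean of 55.8% at day 0 to 40.2% at day 7, Tcf7 grows from 12.8% to 79.0%, and Nkd2 grows from 23.9% at day 0 to 59.1% at day 4.

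Because Tcf7 and Lef1 are also abundant in T lymphocytes, T cell markers were examined. None of the 8 markers reached the filter for testing, Cd3g was listed at 0 in all 9 libraries, and their summed level was 0.287 to 0.602 RPKM at day 0, 0.708 to 0.792 RPKM at day 4 and 0.331 to 0.502 RPKM at day 7. Tcf7 alone was above this sum in every day 4 and day 7 library. Most of the sum was Lck, with means of 0.333, 0.610 and 0.269 RPKM at day 0, day 4 and day 7. Of the 8 markers, 5 had at most 3 reads in every library. Lef1 was below the sum at day 4 and day 7 and peaked at day 4, as Lck did. The part of T cells in the Tcf7 and Lef1 levels was not tested, and levels of different genes do not give it. Markers of macrophages and osteoclasts, other cell types of calvarial cultures, moved in the direction of Tcf7 between day 0 and day 7. All 7 macrophage markers and all 3 osteoclast markers tested were called higher at day 7, against 12.6% of all genes tested. Sums over the macrophage list were 42.9 to 73.6 RPKM at day 0, 82.7 to 88.5 at day 4 and 79.4 to 105.1 at day 7. Sums over the whole osteoclast list were 100.8 to 133.8, 236.9 to 243.8 and 233.6 to 243.5 RPKM. Most of each sum was 1 gene: Lyz2 had means of 47.7 and 79.4 RPKM at day 0 and day 7, and Ctsk 120 and 232. Of the osteoclast markers not tested, Calcr had at most 4 reads in a library, Dcstamp 1 and Ocstamp 31. The part of macrophages and osteoclasts in the Tcf7 result was not tested. In bulk samples such as these, fewer cells of a type and less RNA per cell cannot be told apart. Among the genes whose course over the 9 libraries was most like that of Tcf7, measured as the root mean square difference of centred log2(RPKM + 0.1) among 9091 genes, were Slc13a5 (0.329) and B4galnt3 (0.340).

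The feedback inhibitors each took a course of their own. Nkd2 (ENSMUSG00000021567; chr13:73818534-73847631, minus strand) was at 2.52, 1.96 and 1.64 RPKM at day 0, at 8.55, 5.97 and 8.57 at day 4 and at 3.61, 3.48 and 3.37 at day 7. All day 4 libraries lay above all others, at a mean 3.77 times that of day 0 and 2.21 times that of day 7, and day 7 remained above day 0 in every library. The log2 change from day 0 to day 7 was 0.76 (SE 0.19, adjusted p = 0.00136). Nkd1 (ENSMUSG00000031661; chr8:88521354-88594884, plus strand) was at 6.77, 7.42 and 5.33 RPKM at day 0, at 5.17, 5.38 and 5.17 at day 4 and at 3.51, 3.44 and 3.84 at day 7. Day 4 overlapped with day 0 at its upper edge, and every day 7 library lay below all others. Nkd1 fell from day 0 to day 7 by 0.82 on the log2 scale (SE 0.18, adjusted p = 2.07e-04), in the direction opposite to its paralogue. Axin2 (ENSMUSG00000000142; chr11:108920349-108950783, plus strand), often used as a readout of canonical signalling, was at 1.76, 1.73 and 1.36 RPKM at day 0, at 3.01, 1.87 and 2.45 at day 4 and at 2.23, 2.18 and 1.89 at day 7. Both later stages lay above day 0 in every library and overlapped with each other. The log2 change from day 0 to day 7 was 0.36 (SE 0.19, 95% interval -0.02 to 0.75, adjusted p = 0.151). Axin2 was called higher in 4 of 17 settings, those that rescale the libraries. The antisense gene Gm11670 covers 3.80% of the exonic bases of Axin2, which leaves a small uncertainty in its level.

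The pair of Nkd genes exchanged places at day 4 and overlapped at day 7. Their summed level was 8.55 ± 1.37 RPKM before differentiation and 12.9 ± 1.38 and 7.09 ± 0.146 RPKM after 4 and 7 days, and its day 0 and day 7 libraries overlapped (exact two-sided p = 0.3). Nkd2 held 20.9% to 27.1% of the sum at day 0, 52.6% to 62.4% at day 4 and 46.7% to 50.7% at day 7, so that at day 7 the levels of the pair overlapped (exact two-sided p = 0.1 for day 7 against day 0). The peak of Nkd2 and Lef1 at day 4 coincided with that of immediate early genes, which respond within minutes to stimuli such as the release of cells from a dish. For all 8 of these genes the day 4 libraries lay above those of day 0, as for 21.6% of all genes. The sum of the 8 was 81.6 to 103.3 RPKM before differentiation, 223.8 to 272.0 after 4 days and 105.1 to 152.9 after 7 days. The part of this response in the day 4 levels of Nkd2 and Lef1 was not tested. The genes most like Nkd2 over the 9 libraries were Hbegf (0.181), Gcnt4 (0.184) and Lif (0.212), and those most like Nkd1 were Kif13a (0.0494), Gclc (0.0625) and Pkd2 (0.0629).

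Step by step, 6 of the 10 genes had a higher mean at day 4 than at day 0, against 43.9% of those 12782 genes, and 8 of the 10 did not overlap between these stages, against 43.5%. Fzd1, Lef1, Tcf7, Axin2 and Nkd2 were higher in every library (5 genes, against 21.6% of all), and Lrp4, Lrp6 and Fzd2 were lower in every library (3 genes, against 21.9%). From day 4 to day 7, 5 of the 10 means were higher (40.1% of all) and 5 genes did not overlap (38.6% of all). Lrp4 and Tcf7 were higher in every library (2 genes, against 13.6%), and Lef1, Nkd1 and Nkd2 were lower (3 genes, against 25%). Tcf7 was the single gene of the group whose stages were all separate and in ascending order. The share of all genes with this course was not counted. Lef1 and Nkd2 shared a day 4 maximum without overlap, which 8.07% of all genes had. Across day 0 and day 7 alone, 6 of the 10 means were higher (38.2% of all) and 7 genes did not overlap (42.3% of all). Of these, Lrp5, Tcf7, Axin2 and Nkd2 were higher in every library (4 genes, against 17.1% of all), and Lrp6, Fzd2 and Nkd1 were lower (3 genes, against 25.1%).

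**Figure D4:**
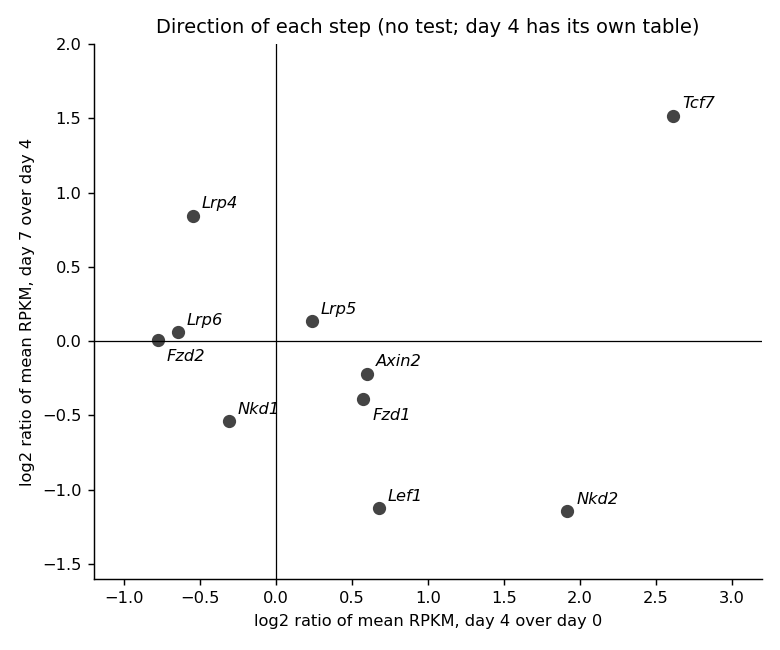
Log2 ratio of mean RPKM from day 0 to day 4 (horizontal axis) and from day 4 to day 7 (vertical axis) for the 10 genes, without a test because day 4 lies in tables of its own. Tcf7 is far in the upper right (ratios of 6.12 and 2.86), Nkd2 and Lef1 are in the lower right, Nkd1 is in the lower left, and Lrp4 is in the upper left.

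Compared by RPKM, the order of the genes was stable at the top and changed at the bottom. Fzd1, Fzd2 and Lrp6 held the first places at each stage, and the libraries of Fzd1 and Fzd2 overlapped at day 0 only. Lrp4 and Lrp5 followed at day 0 and day 7, where they overlapped with each other, whereas at day 4 Lrp4 lay below Lrp5 and overlapped with Nkd2. Tcf7 overlapped with Lef1 in the last place at day 0, with Axin2 at day 4, and stood above Nkd1 and Nkd2 at day 7. Lef1 was lowest at each stage. For the remaining genes, the closest courses over the 9 libraries were those of Slc22a23, Gm22442 and Ddit4 for Lrp4, of Ulk1, Rnf126 and Pfkm for Lrp5, and of Sgpl1, Phkb and Cnot1 for Lrp6. Col27a1, Baz1a and Ppp1r18 were closest to Fzd1, and Kif14, Mapkap1 and Scarb2 to Fzd2. Dusp18, Gpm6b and Rps6ka2 were closest to Lef1, and Ints12, Slc1a6 and Enah to Axin2. The root mean square difference of the closest gene ranged from 0.0588 for Col27a1 and Fzd1 to 0.130 for Dusp18 and Lef1 in these genes.

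The other genes of the pathway were counted by role. Of 57 such genes 55 were tested, and 7 were called higher and 16 lower (41.8% called, against 31.2% of all genes). The count of lower calls moved with each library left out: it was 10 without replicate 1, 8 without replicate 2 and 28 without replicate 3 of day 0, and 10, 9 and 6 without replicates 1, 2 and 3 of day 7. The count of higher calls was 4 without replicate 1 of day 7, 12 with median-of-ratios scaling or voomWithQualityWeights and 11 with DESeq2. Of the 23 genes called, 9 were called in every setting in which they were tested (16 settings for Fzd10, Rnf43 and Notum, and 17 for the others), Lgr6, Rnf43, Kremen1 and Notum as higher and Fzd6, Fzd10, Lgr5, Btrc and Tcf7l1 as lower. Among the 8 other Frizzled genes, Fzd3, Fzd4, Fzd6 and Fzd10 were called lower, as Fzd2 was, and Fzd5 higher (62.5% called, against 31.2% of all genes). Fzd10 fell most, from 1.21 ± 0.233 RPKM at day 0 to 0.310 ± 0.0317 at day 7 (log2 change -1.54, adjusted p = 2.41e-06). Of the 4 other Wnt receptors, Ptk7 and the receptor tyrosine kinase Ror1 were called lower (50% called, against 31.2% of all genes). Each was called in a minority of the fits with a library left out (1 of 6). Ror1 lay just inside the threshold (log2 change -0.60, adjusted p = 0.0499). Of 15 cytoplasmic transducers, Apc, Apc2, Axin1, Btrc and Amer1 were called lower and none higher (33.3% called, against 31.2% of all genes), with the largest fall in Btrc (log2 change -0.68, adjusted p = 0.00210). The kinase genes of the same list, Gsk3a, Gsk3b, Csnk1a1, Csnk1d and Csnk1e, were not called. Ctnnb1, which encodes β-catenin, was at 194.6 RPKM at day 0 and 193.4 at day 7 (log2 change 0.00, adjusted p = 0.990). Of 12 other nuclear factors, Tcf7l1, Bcl9l and Tle4 were called lower and none higher (25% called, against 31.2% of all genes). Bcl9l kept its call in 7 of 17 settings.

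The R-spondin receptors and the genes that control receptor turnover included the largest rise and the largest fall among the other pathway genes. Rnf43, a ubiquitin ligase that removes Frizzled and Lrp6 from the membrane and is itself a Wnt target, had 5, 4 and 1 reads at day 0, 180, 232 and 184 at day 4 and 110, 75 and 128 at day 7, or 0.0417 ± 0.0191, 0.854 ± 0.0862 and 1.18 ± 0.0972 RPKM. The log2 change from day 0 to day 7 was 3.43 (adjusted p = 5.64e-16), with a range of 1.63 to 4.87 over the settings. Lgr5 and Lgr6, both receptors for R-spondins, went in opposite directions. Lgr5 was at 1.88, 3.21 and 2.49 RPKM at day 0 and at 0.542, 0.328 and 0.555 at day 7 (log2 change -2.30, adjusted p = 5.33e-13), and Lgr6 at 0.239, 0.0732 and 0.207 RPKM at day 0 and at 2.09, 1.54 and 1.25 at day 7 (log2 change 2.83, adjusted p = 3.25e-13). Kremen1, a receptor for Dickkopf inhibitors, was also called higher (log2 change 0.59, adjusted p = 0.00195), and Kremen2 was not tested. Among 10 other targets tested, Notum, Myc and Tnfrsf11b were called higher and Twist1 lower (40% called, against 31.2% of all genes). Of these, Notum alone kept its call in every setting that tested it. The largest rise was that of Notum, which encodes a secreted enzyme that inactivates Wnt ligands, from 0.397 ± 0.170 RPKM at day 0 to 1.03 ± 0.228 at day 4 and 2.91 ± 0.761 at day 7 (log2 change 2.37, adjusted p = 8.52e-11). As with Tcf7, the stages of Rnf43, Lgr6 and Notum were separate and in ascending order, a course whose share over all genes was not counted.

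**Figure D5:**
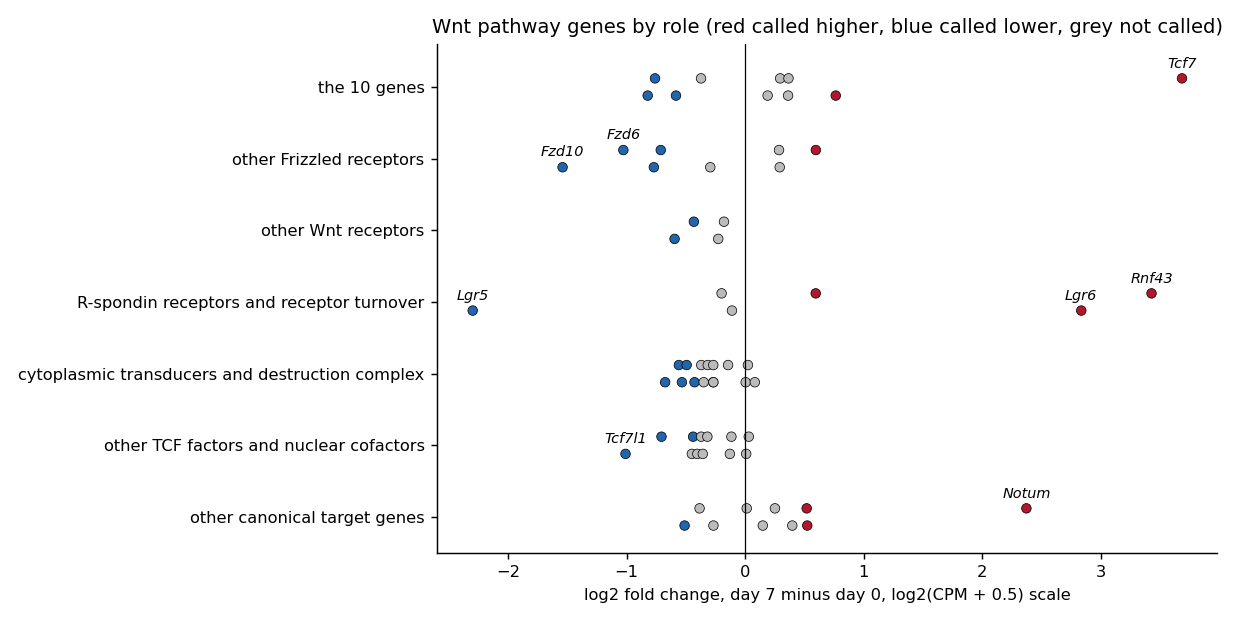
Log2 change from day 0 to day 7 (horizontal axis, log2(CPM + 0.5) scale) of the 10 genes and of the 55 other Wnt pathway genes tested, by role (rows; red called higher, blue called lower, grey not called). Rnf43, Lgr6 and Notum are the other pathway genes past 2 on the right, and Lgr5 at -2.30 is the one farthest to the left.

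Some other cell markers moved with the genes that were lower. Of 6 proliferation genes 4 were called lower at day 7 and none higher, against 18.6% and 12.6% of all genes tested. For all 6 the day 4 libraries lay below those of day 0, as for 21.9% of all genes. The sum of the 6 was 79.0 to 122.4 RPKM before differentiation, 53.3 to 67.4 after 4 days and 63.0 to 73.8 after 7 days. The sum was highest at day 0, as were Lrp6 and Fzd2. Of 5 chondrocyte markers 3 were called lower and 2 higher, against 18.6% and 12.6% of all genes tested. The part of proliferating cells and chondrocytes in the levels of Lrp6, Fzd2 and Nkd1 was not tested. Markers of endothelium, keratinocytes and adipocytes were mostly too low to test: 0 of 5, 1 of 6 and 1 of 5 reached the filter, and neither of the genes tested was called. Emcn was listed at 0 in all 9 libraries. Among the markers not tested, Epcam had 0 to 1 reads a library at day 0 and 3 to 10 at day 7, and Fabp4 had 6 to 24 and 4 to 6. Of the muscle markers the single gene tested, Acta1, was called higher.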

How the data were processed

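RNA-seq was measured in 9 libraries, 3 per stage. Per the labels and the study's methods, the authors aligned reads to GRCm38 (Ensembl) with STAR 2.0.4b and counted unique, unambiguous reads per gene with featureCounts. The authors deposited CPM and RPKM, in tables for day 0 with day 7 and for day 4. In all libraries 100% of the deposited CPM values were whole multiples of 1 read (tolerance 0.01), and these recovered counts entered the count models. The 276 and 273 repeated gene lines were identical and used once.

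The test of day 7 against day 0 used limma 3.58.1 (R 4.3.3; trended variances) on log2(CPM + 0.5) of genes whose CPM averaged 1 or more, with Benjamini-Hochberg adjustment. Gene variances were shrunk with 42.9 prior and 4 residual degrees of freedom, so the trend over all genes weighs most in the p-values. Fold changes of low genes are understated by the pseudocount. Shares were compared by exact permutation tests. Scripts were tested on simulated data. Alternatives included edgeR 4.0.16 and DESeq2 1.42.0 on recovered reads. No replicates were duplicates (chi-square of counts per degree of freedom, 12.7 to 222). Coordinates are from GENCODE M21 (GRCm38).

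The members and lists were chosen with earlier results of these data known. All 10 genes are named, with the called gene with the largest rise and that with the largest fall in each pathway list and the 3 genes closest in course to each of the 10, except for an item that is not reported here. Apc, Apc2, Amer1, Axin1, Bcl9l, Csnk1a1, Csnk1d, Csnk1e, Ctnnb1, Fzd3, Fzd4, Fzd6, Gsk3a, Gsk3b, Kremen1, Kremen2, Lgr6, Myc, Ptk7, Tcf7l2, Tle4 and Tnfrsf11b were named after their values were seen. The cell markers Calcr, Ctsk, Dcstamp, Lck, Lyz2 and Ocstamp were also named after their values were seen. The listed symbol Emr1 is an older name of Adgre1.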

Additional observations from a re-analysis of the deposited data

How the results depend on the processing

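The calls of Lrp6, Fzd2, Tcf7, Nkd1 and Nkd2 held in all 17 alternatives (pseudocount, filter, RPKM in place of CPM, scaling, count models, robust variances, replicate block, each library left out), and no value reversed. With DESeq2, edgeR, voomWithQualityWeights or median-of-ratios scaling the count of the 10 genes called higher was 6 in place of 2, through Lrp4, Lrp5, Fzd1 and Axin2, whose adjusted p with median-of-ratios scaling was 0.0172, 0.0307, 0.0234 and 0.0104. Over the leave-one-out fits it was 2 to 3. The count of other pathway genes called higher, 7, was 12 with median-of-ratios scaling, 11 with DESeq2, 12 with voomWithQualityWeights and 4 to 8 with each library left out. Their count called lower, 16, was 6 to 28 with each library left out. Of all genes 3971 were called, 6120 with voomWithQualityWeights and 2882 to 6330 with each library left out. The cause of these differences was not tested. Of the other values that answer a comparison, 109 kept their size and direction. Replicate numbers did not pair the libraries (correlation of deviations of same-numbered libraries -0.0172, -0.181 and -0.444), and with the number as a block 3413 genes were called, with 2 of the 10 genes higher and 3 lower. Lef1 fell under the filter at a mean CPM of at least 5. The day 0 levels of Tcf7 and Rnf43 rest on few reads, which limits the precision of their ratios.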
